A study of Homo sapiens with 9 samples.

Results

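The middle count column of the RPE1 replication timing tables was set against the mean of the columns on either side of it, in 50 kb windows of the 22 autosomes. This used 6 of the 9 libraries of the series, 3 in each of 2 RPE1 sets. RPE1 is a human retinal pigment epithelial line immortalised with telomerase. Growing cells received a pulse of EdU, a thymidine analogue that is built into new DNA, and were sorted into early, mid and late S phase before the labelled DNA was pulled down and sequenced. No treatment or genotype separated the groups, and nothing in the labels says whether the sets were separate cultures.

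The tables have no header, so no label states which fraction a column holds. The comparison was set up as mid S against early and late S on the assumption that the columns (4, 5 and 6) follow the order in which the samples are listed. That order is an inference which nothing in the labels or tables settles. The columns are therefore named by position here, and no value below is given for a named fraction. Whether a position holds the same fraction in both sets is likewise not stated.

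DNA is copied in a set order during S phase. Gene-rich, open chromatin tends to be copied early and gene-poor, compact chromatin late, and long transition regions link early and late domains where a fork travels from an early origin into later DNA. When cells are sorted into fractions of S phase, a locus gives most nascent DNA to the fraction in which it is copied, and a locus copied at varying times gives some to several.

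Column 5 of set 1 was the shallowest RPE1 library, with 6170299 reads in all, and the others had from 13867005 to 22930078. A window held a median of 106 reads in column 5 of set 1 and 272 in column 5 of set 2. Of 57633 windows, 53707 were kept. Each column was scaled to the same total over these windows. The contrast was log2 of column 5 plus 1, minus log2 of the mean of columns 4 and 6 plus 1. A contrast of 0 gives column 5 a share of 33.3% of the scaled reads of its set. A window was called high at a contrast of at least 1, where column 5 has about 50% of the reads, and low at -1 or less, where it has about 20%. Each set has 1 library per column, so values are given set by set with no test. The median counting error of a window's contrast was 0.16 in set 1 and 0.11 in set 2. Reads are not independent molecules, and this covers counting error only.

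Column 5 took between 15.3% and 56.2% of reads in set 1, and between 15.3% and 50.5% in set 2, from the 5th to the 95th percentile of windows. The median contrast was 0.091 in set 1 and 0.016 in set 2. In set 1, 8622 windows, or 16.1%, were high and 9996, or 18.6%, were low. In set 2, 3115 windows, or 5.8%, were high and 6038, or 11.2%, were low. Set 1 had more windows at both extremes than set 2 in this measure. With the mean of the outer columns' log2 values in its place, the order at the low extreme turned, with 6.37% low in set 1 and 7.48% in set 2. The level taken as 0 rests on the scaling. With columns scaled to their medians, the contrast moved down, its median by -0.57 in set 1 and -0.28 in set 2. High windows then made up 5.11% of called windows in set 1 and 2.54% in set 2, against 46.3% and 34.0% with equal totals.

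At 2-fold with equal totals, more windows were high in both sets than low in both. There were 2419 windows high in both sets, or 4.5% of all windows. They made up 77.7% of the high windows of set 2 and 28.1% of those of set 1. Only 166 windows, or 0.309%, were low in both, which was 1.66% of the low windows of set 1 and 2.75% of those of set 2. No window was high in 1 set and low in the other. These counts turned with the settings. With columns scaled to their medians, 0.168% of windows were high in both sets and 4.51% low in both. At 1.5-fold with equal totals, 19.5% were high in both and 9.55% low in both, of 28.0% low in set 1 and 24.3% low in set 2.

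**Figure D1:**
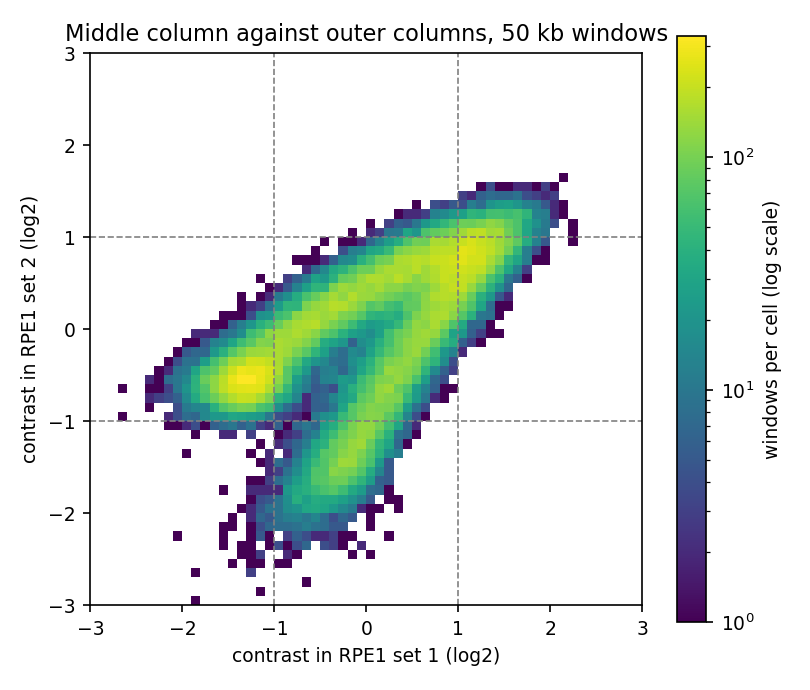
Contrast of column 5 against columns 4 and 6 (log2) in RPE1 set 1 (x) and set 2 (y), with colour giving the number of 50 kb windows per cell on a log scale and dashed lines at -1 and 1. The windows form a V: the arms meet where both sets are high, and their other ends lie apart, low in set 1 for the upper arm and low in set 2 for the lower arm.

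The contrast varied with the balance between the outer columns. Windows were put into 10 equal classes by log2 of column 4 over column 6 in the other set, so that the class and the contrast shared no library. Class 1 had the most column 6 and class 10 the most column 4. In set 1 the median contrast was -1.31 in class 1, 1.05 in class 6, 1.03 in class 7 and -0.039 in class 10. In set 2 it was -0.51 in class 1, 0.82 in class 6 and -1.21 in class 10. In this measure the contrast was highest in the inner classes of both sets and lower toward both ends. The drop toward class 10 in set 1 depends on the measure. Column 6 held a median of 3.48% there, and averaging the outer columns' log2 values gives so low a share more weight. The highest class median of set 1 was then 1.42, in class 7, and class 10 was not read that way. In set 1, high windows were also frequent in a class whose median outer shares were far apart. In its class 7, 53.0% of windows were high, against 55% in class 6. The median shares of class 7 were 39.9% for column 4 and 8.82% for column 6. They cover all windows of the class, and the shares of its high windows alone were not read.

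The same classes give the shares behind these contrasts. In class 6 of set 1 the median shares were 30.9% for column 4, 50.9% for column 5 and 17.5% for column 6. In class 6 of set 2 they were 29.2%, 46.9% and 23.7%. Classes 5 to 7, placed by set 2, held 22.6, 51.3 and 22.9% of the windows high in both sets. The call in set 2 uses its own columns 4 and 6, so here class and call share libraries.

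The sets differed in which end was lowest. In set 1, 85.9% of class 1 windows were low and 1.73% of class 10 windows. In set 2 the shares were 0.614% and 63.0%. Of the set 1 low windows, 99.0% had more of column 6 than of column 4 in set 2, against 51.0% of all windows. Of the set 2 low windows, 98.8% had more of column 4 than of column 6 in set 1, against 51.6% of all. At 2-fold, the low windows of set 1 thus lay almost wholly on the column 6 side and those of set 2 on the column 4 side. The split was less complete at 1.5-fold. There 9.55% of windows were low in both sets, of 28.0% low in set 1 and 24.3% low in set 2.

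Columns 5 and 6 both differed between the sets at the column 4 end. Each set's classes were placed by the other set, so a class does not hold the same windows in both. In class 10, column 5 held a median of 32.7% of set 1 and 17.7% of set 2, while column 6 held 3.48% and 16.8%. At the column 6 end, class 1, column 5 held 16.8% of set 1 and 25.9% of set 2, while column 6 held 70.1% and 61.5%. Column 4 was nearly the same in both sets, at 63.7 and 64.6% in class 10 and 13.0 and 12.6% in class 1. What set these differences was not tested.

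**Figure D2:**
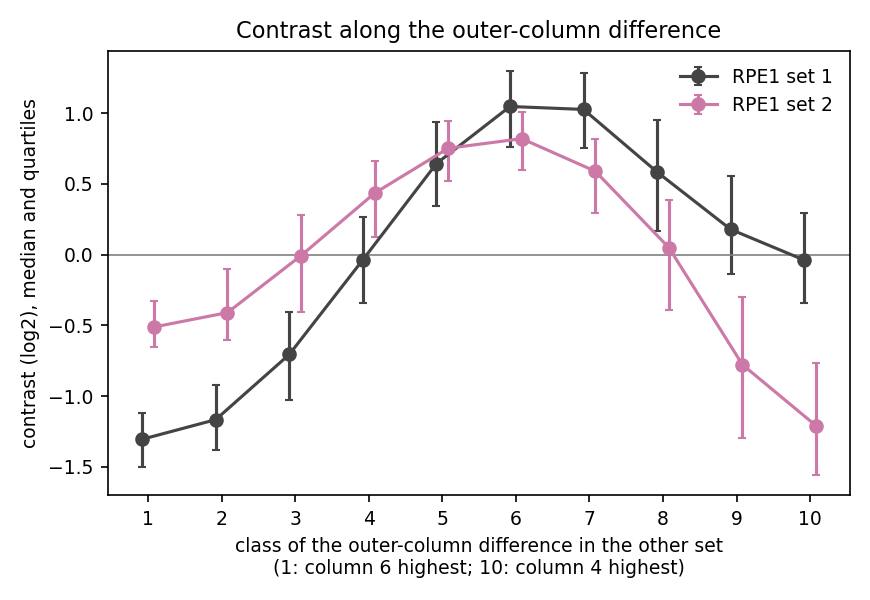
Contrast (log2) in each class of the outer-column difference, from 1 (column 6 highest) to 10 (column 4 highest), with classes taken from the other RPE1 set; points are medians and bars run from the first to the third quartile of windows. Both sets peak in class 6, at 1.05 and 0.82, set 1 is lowest in class 1 and set 2 in class 10.

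Over all windows the contrast correlated between the sets at Pearson's r = 0.617 and Spearman's rho = 0.685 (53707 windows, which share libraries and are not independent). The SD of the difference between the sets was 0.738, and 17.2% of windows differed by at least 1. The sign was the same in 75.4% of windows. With the outer columns' log2 values averaged in the contrast, Pearson's r between the sets was 0.223. The outer columns were closer. Taken against the mean of the other columns of its set, column 4 correlated between the sets at 0.982 and column 6 at 0.954. Column 5 of set 1 also correlated at 0.429 with column 4 of set 2 and at -0.765 with column 6 of set 2, while column 5 of set 2 correlated at -0.375 and 0.153 with columns 4 and 6 of set 1. The middle column of set 1 thus leaned toward column 4, and that of set 2 slightly toward column 6.

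Column 5 led, with more scaled reads than either neighbour, in 31.2% of windows in set 1 and 31.9% in set 2. These windows formed 2737 runs in set 1 and 2617 in set 2. Runs were fewer for the outer columns, at 1656 and 1424 for column 4 and 1243 and 1343 for column 6. The median length of column 5 runs was 200 kb in set 1 and 250 kb in set 2, with 487 and 507 runs of at least 500 kb. For column 4 the medians were 250 and 350 kb, with 498 and 572 such runs. For column 6 they were 450 and 350 kb, with 608 and 546. The longest column 5 runs were 2650 and 2700 kb, against 6650 and 6750 kb for column 4 and 10900 and 9750 kb for column 6.

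Runs of column 5 stood between runs of the outer columns. On the way from a column 4 run to a column 6 run or back, 1175 of 1238 passages in set 1 (94.9%) and 1113 of 1159 in set 2 (96.0%) had a single column 5 run in between. Passages between columns 4 and 5 had a run of column 6 in between in 1.33% of cases in set 1 and 0.777% in set 2. Those between columns 5 and 6 had one of column 4 in 1.36% and 1.33%. With columns scaled to their medians the share for passages between the outer columns was 70.7% in set 1 and 91.7% in set 2.

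Not every column 5 run was such a passage. In set 1, 42.9% of them lay between different outer columns, 34.5% had column 4 on both sides and 18.7% had column 6 on both sides. In set 2 these shares were 42.5, 29.0 and 24.5%. The rest adjoined a gap in the kept windows or a chromosome end. Runs between different outer columns had the highest median peak. Their median peak contrast was 1.29 in set 1 and 0.98 in set 2, against 1.15 and 0.86 inside column 4 and 0.92 and 0.76 inside column 6. The peak is the highest window of a run, and run lengths differed. Runs between different outer columns had a median length of 250 kb in both sets. It was 150 and 250 kb inside column 4, and 200 and 150 kb inside column 6.

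The shape of the passage was read from places where the outer columns switched order in the other set and kept each order for at least 5 windows. There were 1208 such switches for set 1 and 1207 for set 2. In set 1 the median share of column 5 was 45.3% at 225 kb on the column 4 side, 51.5% at 75 and 25 kb before the switch, and 34.8% at 125 kb beyond it. In set 2 it was 38.0% at 225 kb before, 47.7% at 25 kb before and 40.6% at 125 kb beyond. The contrast was above 0 within 100 kb of 99.8% of switches in set 1 and 99.9% in set 2, and high there at 76.5% and 45.7%. Of all spans of 4 adjacent windows, the same width, 64.8% in set 1 and 61.8% in set 2 held a window above 0, and 28.7% and 13.5% a high window. Column 5 thus had a narrow maximum close to the switch, slightly on the column 4 side, and its flanks were level in set 2 and uneven in set 1.

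**Figure D3:**
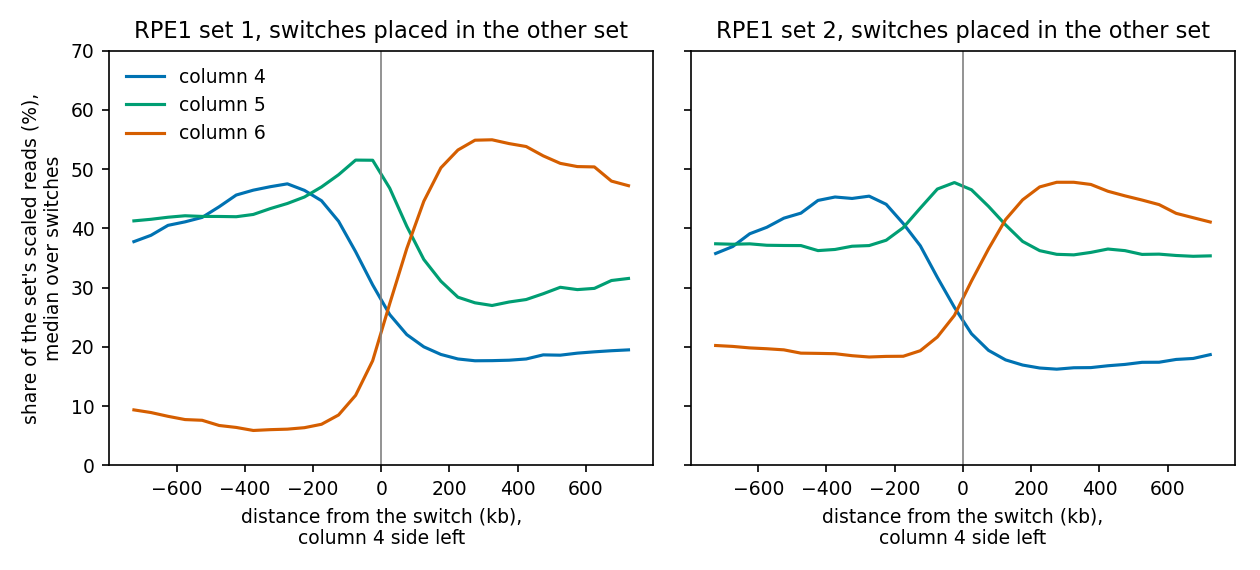
Median share of scaled reads (%) of columns 4, 5 and 6 by distance (kb) from a switch of the outer columns, for RPE1 set 1 (left, 1208 switches placed in set 2) and set 2 (right, 1207 switches placed in set 1), with the column 4 side on the left of each plot. Column 5 peaks at 51.5% in set 1 and 47.7% in set 2 beside the switch, while columns 4 and 6 cross.

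The windows high in both sets formed 1300 runs, of which 777 were single windows, 249 had at least 3 windows and 10 had at least 10. The 5 longest are named by coordinate (hg19), without genes, since no annotation of that build was used here. They were picked for their contrast, so their values are a description. In these regions column 5 held 58.4 to 60.6% of set 1 and 52.9 to 53.8% of set 2. The 95% counting interval of these shares reached at most 1.48 percentage points to either side in set 1 and 0.964 in set 2. All 5 mean contrasts, in both sets, exceed the shift that median scaling brings to the median contrast. The regions themselves were not read with that scaling.

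The longest region high in both sets was chr1:198800001-199850000, of 1050 kb. Set 1 had 2840, 2869 and 1633 reads there in columns 4, 5 and 6, which scaled to 146, 333 and 77.6 reads a window. Set 2 had 5807, 8462 and 3302 reads, or 178, 379 and 150 a window. Column 5 was the highest in both sets and column 6 the lowest. The mean contrast was 1.58 in set 1, from 1.13 to 1.98 over windows, and 1.2 in set 2, from 1.00 to 1.43.

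**Figure D4:**
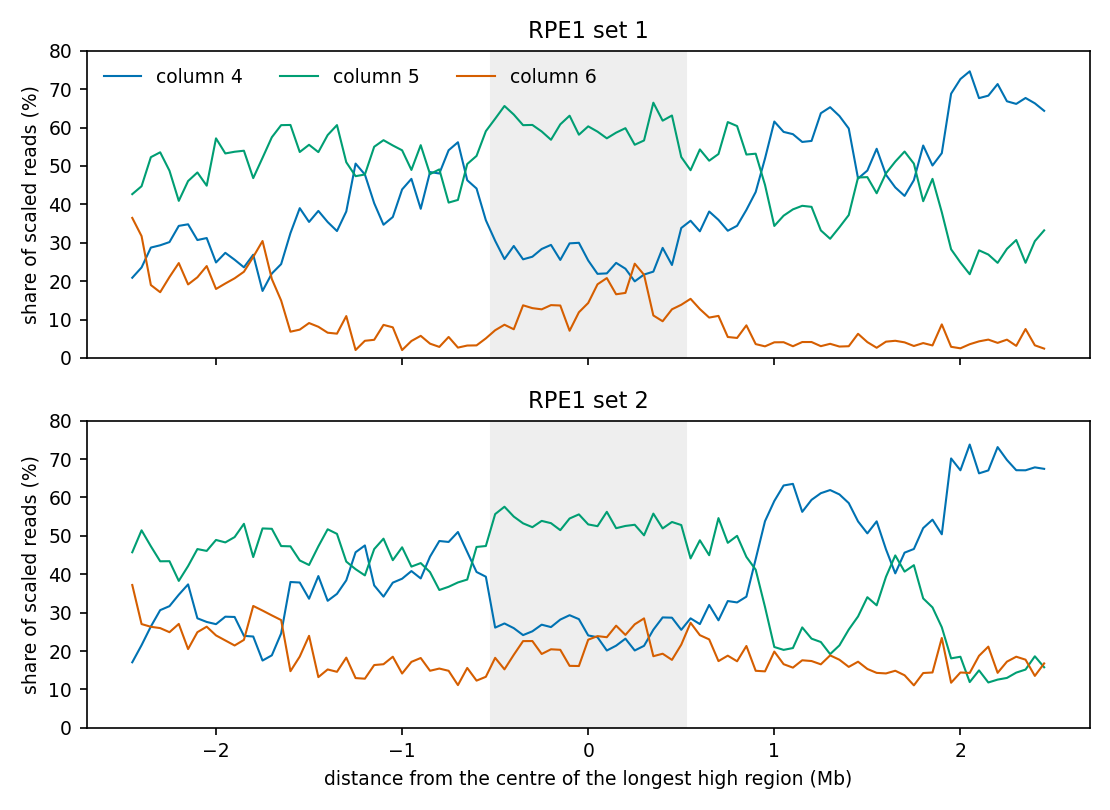
Share of scaled reads (%) of columns 4, 5 and 6 in 50 kb windows by distance (Mb) from the centre of the longest region high in both RPE1 sets, with that region shaded; the upper plot is set 1 and the lower set 2. Column 5 holds 59.9% of the shaded region in set 1 and 53.6% in set 2, and column 4 is the highest toward the right edge.

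The next longest lay on chromosome 3. At chr3:30800001-31550000, set 1 had 1832, 1859 and 975 reads and set 2 had 4450, 5818 and 1956 in columns 4, 5 and 6, with mean contrasts of 1.61 and 1.21. At chr3:105400001-106150000, set 1 had 2157, 1984 and 1045 reads and set 2 had 4510, 6126 and 2334, with contrasts of 1.52 and 1.16. Both regions were 750 kb long, and in both column 6 had the smallest scaled share of each set. A region of 700 kb at chr6:112900001-113600000 had contrasts of 1.61 in set 1 and 1.22 in set 2. At chr5:91750001-92400000, of 650 kb, they were 1.49 and 1.21, and column 6 took 16.8% of set 1 and 22.5% of set 2. That was the largest column 6 share of these regions in both sets.

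A longer stretch was led by column 5 at a lower contrast. The longest column 5 run of set 1 was chr7:82250001-84900000, and that of set 2 was the same stretch with 1 more window, ending at 84950000. Over the set 1 run, columns 4, 5 and 6 held 27.4, 54.4 and 18.2% of set 1, and 27.5, 49.3 and 23.2% of set 2. The mean contrast was 1.27 and 0.96. The extent of this run differed between the sets by the width of 1 window.

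No run of 3 windows was low in both sets at 2-fold, so the low regions named are the 5 longest at 1.5-fold, a contrast of -0.585 or less in both. There were 5128 such windows, or 9.55%, in 2336 runs. All 5 regions were led by column 6, in both sets. The longest was chr10:108000001-109400000, of 1400 kb. Set 1 had 5151, 2272 and 24512 reads in columns 4, 5 and 6, which scaled to 198, 198 and 874 a window. Set 2 had 5704, 6194 and 17171 reads, or 131, 208 and 586 a window. The mean contrast was -1.44 in set 1 and -0.79 in set 2. Columns 4 and 5 were level in set 1, and column 5 lay above column 4 in set 2.

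The other low regions had the same order of sets. At chr7:146550001-147450000 the mean contrast was -1.25 in set 1 and -0.88 in set 2, and column 6 held 67.7 and 63.8% of reads. At chr12:129600001-130450000 it was -1.53 and -0.80. At chr7:62750001-63600000 it was -1.27 and -0.80, and column 4 held 24.1% of set 1 there, more than the 17.3% of column 5. At chr10:130650001-131450000 it was -1.70 and -0.84, with 72.8 and 66.8% in column 6. Column 5 held 13.4 to 17.4% of set 1 and 21.4 to 22.5% of set 2 over the 5 regions, so set 1 was the lower of the sets in each. These regions were picked for a low contrast in both sets, so their values are a description. The medians of class 1, which had the most column 6, had the same order, at -1.31 and -0.51.

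Autosomes differed in how much of their length was high in column 5. Windows high in both sets made up 7.08% of chromosome 4, 6.31% of chromosome 7 and 6.19% of chromosome 5, against 4.5% overall. On chromosome 19 there was 1 such window among 1116, or 0.0896%, and chromosomes 22 and 16 had 0.86% and 1.08%. The median contrast ran from -0.27 on chromosome 18 to 0.25 on chromosome 2 in set 1, and from -0.55 on chromosome 19 to 0.27 on chromosome 4 in set 2. These medians moved together over the 22 autosomes at r = 0.683, given as a description, since the chromosomes share their libraries.

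Some chromosomes exceeded the low share of all windows in 1 set only, and others in both. Each share counts the low windows of its own set, so these need not be the same windows. Chromosome 18 had 33.0% low windows in set 1 and 4.22% in set 2. Chromosome 22 had 11.9% in set 1 and 35.8% in set 2, chromosome 19 had 12.7 and 33.2%, and chromosome 17 had 10.0 and 31.1%. Chromosome 16 had 23.3 and 20%, and chromosome 20 had 20.6 and 20%, above the 18.6 and 11.2% of all windows in both sets. Chromosomes 19 and 22 are known for a high density of genes and chromosome 18 for a low one.

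**Figure D5:**
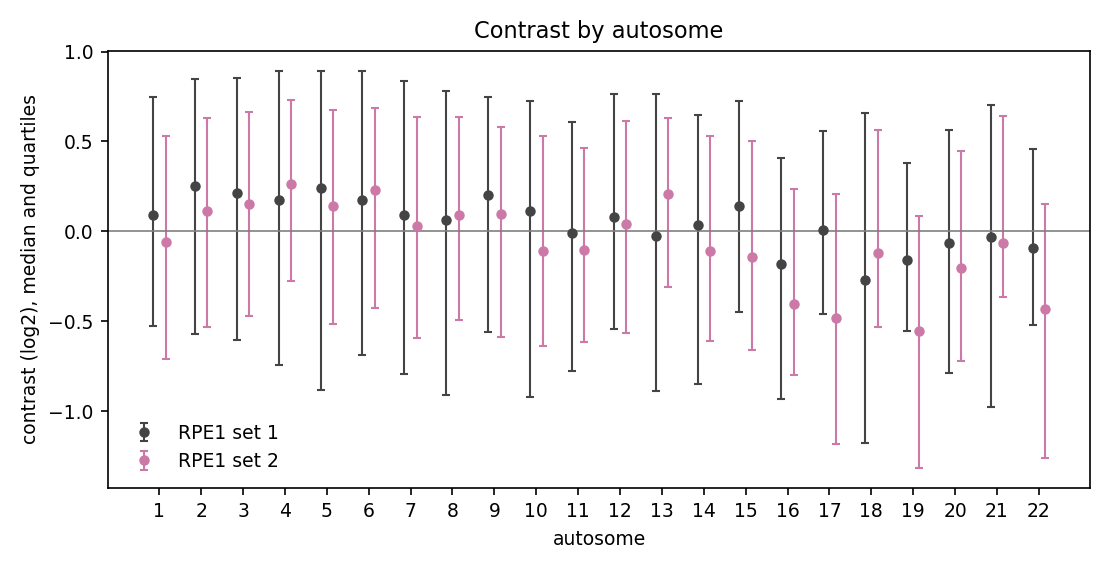
Contrast (log2) of column 5 against columns 4 and 6 for each autosome in RPE1 set 1 and set 2; points are medians over 50 kb windows and bars run from the first to the third quartile. Set 2 lies well below set 1 on chromosomes 17, 19 and 22, and above it on chromosomes 13 and 18.

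HCT116, a colorectal carcinoma line with 1 set of libraries, was read at the same column positions. Its windows were high in 7.84% and low in 9.42% of cases. Of the windows high in both RPE1 sets, 16.1% were high in HCT116 and 74.7% had a contrast above 0 there, against 49.0% of all windows. Conversely, 9.24% of the HCT116 high windows were high in both RPE1 sets. The contrast correlated with HCT116 at 0.451 for set 1 and 0.457 for set 2, against 0.617 between the RPE1 sets. With the outer columns' log2 values averaged, the RPE1 correlation was 0.223, and HCT116 was not read that way. The sign matched HCT116 in 67.5% of windows for set 1 and 71.7% for set 2, against 75.4% between the RPE1 sets. By the SD of the difference, set 2 lay nearly as far from set 1 as from HCT116, at 0.738 and 0.770. In the 5 named high regions column 5 held 35.4 to 47.8% in HCT116, below both RPE1 sets in each region. The regions were picked for high RPE1 values, so this order follows in part from the choice. With 1 HCT116 set, the difference between the lines was not tested.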

How the data were processed

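Per the labels, nascent DNA was sequenced as single-end reads of 50 bases. The deposited tables hold raw counts of reads per 1 kb bin, over 3137207 bins, with unequal column totals. The tools were Bowtie2, bedtools 2.25 and SAMtools 1.2 on hg19, per the submitters' processing notes, which give no roles. Table names point to duplicate removal by an unstated method. How multiply mapping reads were treated affects the count of a repeat-rich bin.

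Bins were summed to 50 kb windows (Python 3.11.15, numpy 2.4.6, pandas 2.3.3). A window needed 25 bins with an RPE1 read, 50 RPE1 reads and 30 in each set. Columns were mapped to sets by table name, and to no fraction, so edgeR's test of named fractions was not run. Gene lists were not analysed here. Code was tested on simulated data. Regions named are the 5 longest runs in each direction and the longest column 5 run of each set. The comparison, lists and rules were chosen with earlier results of these data known.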

Additional observations from a re-analysis of the deposited data

Results flagged for a closer look

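HCT116 lay on the opposite side from both RPE1 sets in a small number of windows. In 90 windows, in 66 runs, column 5 was high in both RPE1 sets and low in HCT116, and in 2 windows it was low in both RPE1 sets and high in HCT116. The 90 are 3.72% of the 2419 windows high in both RPE1 sets, below the 9.42% of all windows low in HCT116. The 2 are among 166 windows low in both RPE1 sets, and 7.84% of all windows were high in HCT116. The longest of the 66 runs was chr5:8800001-9000000, where column 5 held 57.2 and 51.6% of the RPE1 sets and 16.9% of HCT116, and column 6 held 9.85, 17.3 and 65.2%. The difference between the lines was not tested, since HCT116 has 1 set.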

How the results depend on the processing

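Of 114 alternative values, 82 stayed the same, 32 moved and 0 reversed. Same meant within 1.5 times (shares), within 0.1 (the correlation, an arbitrary limit) or within the SD of the 2 sets (class medians). Only the correlation and the class medians could count as reversed, by a change of sign. Shares could not, and the order of high and low windows in both sets did turn with median scaling. The class with the highest median contrast was 6 in set 2 under all settings, and 6 or 7 in set 1. Values are given as set 1 and set 2. With columns scaled to medians, high windows were 1.79 and 0.454% (0.168% in both sets), low windows 33.2 and 17.5% (4.51% in both), the highest class medians 0.485 and 0.521 and the lowest -2.01 and -1.55. The shift follows from the scaling. With the mean of the outer columns' log2 values, high windows were 38.0% in set 1, low windows 6.37 and 7.48% (0 in both), the highest class median 1.42 in set 1, the lowest -0.851 and -0.903, and the correlation 0.223; the cause was not tested. The 1.5-fold threshold gave 31.7 and 25% high (19.5% in both) and 28.0 and 24.3% low (9.55% in both), by construction. Windows low in both were 1.11% at 20 kb, 0.104% at 100 kb and 0.78% after thinning to the smallest library, and the lowest class median of set 2 was -1.13 at 20 kb and -1.13 after thinning; the cause was not tested. With 1 set left out, the share called in both becomes that of the other set, 5.8 to 16.1% high and 11.2 to 18.6% low, by construction. No paired analysis was possible because the replicate numbers belong to labelled fractions, no column could be tied to one, and pairing by column position would have taken the fractions from their order. Depth limits single windows most in set 1, whose column 5 had the fewest reads.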

Other observations

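The contrast was shared by neighbouring windows over short distances. Between windows 50 kb apart it correlated at 0.928 in set 1 and 0.932 in set 2, at 250 kb at 0.648 and 0.555, at 500 kb at 0.444 and 0.331, and at 2000 kb at 0.127 and 0.148, over at least 48611 pairs of windows on the same chromosome. The longest column 5 run of HCT116 was chr6:14150001-17550000, of 3400 kb, where column 5 held 49.2% of HCT116, 42.7% of RPE1 set 1 and 42.4% of RPE1 set 2.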
